A study of Homo sapiens with 12 samples.

Results

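The 5 genes described here are the endothelin ligands EDN1 and EDN2, the receptors EDNRA and EDNRB, and the endothelin converting enzyme ECE1. They were taken by symbol from the 23710 gene rows of the count tables, and all 5 had a row. The family was selected on the level of EDN2, which was lower with each MESH1 siRNA, so the change of EDN2 is given as a description with no test. EDN1 and ECE1 were tested among all genes. EDNRA and EDNRB had 0 reads in all 12 libraries, so 3 of the 5 genes passed the filter on low counts in each experiment.

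Endothelins are short peptides that constrict blood vessels. Each is made as a long precursor, cut by furin-type convertases to big endothelin, and cut again by a converting enzyme to the active peptide. EDNRA and EDNRB are G protein-coupled receptors that act through phospholipase C and calcium release, and EDNRB also removes the peptide from the circulation. In the kidney, tubule cells as well as endothelium make endothelin-1, which acts on salt and water handling through EDNRB.

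RNA was sequenced from RCC4, 1 established line of human clear cell renal carcinoma. RCC4 cells lack a working VHL protein. Cells received 40 pmol of siRNA with Lipofectamine RNAiMAX and were collected after 72 h. In experiment 1, siMESH1-CDS was compared with a non-targeting siRNA (siNT), and in experiment 2, siMESH1-7002 was compared with siNT libraries of its own, with 3 libraries labelled as biological replicates in each of the 4 groups. MESH1 is a phosphatase that removes a phosphate from NADPH, and its gene has the symbol HDDC3. All 12 libraries come from the same line and the same transfection protocol, and the siRNA and the experiment cannot be told apart when siMESH1-CDS and siMESH1-7002 are set side by side.

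The siRNA target sequences are shown because a short match to the guide's seed can act on other transcripts. Capitals mark the 7 bases that pair with guide bases 2 to 8.
siMESH1-CDS: gggaatcactgACATTGTg
siMESH1-7002: ctgaaggtctcctGCTAACTa
In GENCODE transcripts of GRCh38, the first lies in the HDDC3 coding sequence and the second in its 3'UTR. The 3'UTRs of EDN1 and EDN2 held neither seed match. That of ECE1 held 1 match to the siMESH1-CDS seed, as did that of EDNRA, and that of EDNRB held 1 match to the siMESH1-7002 seed. The matches are shown with capitals as above.
ECE1, siMESH1-CDS seed: ttagccaggggACATTGTgagg
EDNRA, siMESH1-CDS seed: atctccctcccACATTGTcacc
EDNRB, siMESH1-7002 seed: ggtatgctgtaGCTAACTttat
Of 18591 genes with a 3'UTR, 14.2% held the first match and 5.49% the second. A match is a description of the letters only.

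Libraries held 34063155 to 49134129 reads in genes in experiment 1 and 24787804 to 31651125 in experiment 2. HDDC3 had 438, 292 and 361 reads with siNT and 5, 0 and 11 with siMESH1-CDS. It had 442, 326 and 358 reads with siNT of experiment 2 and 36, 35 and 52 with siMESH1-7002. All 11 markers of renal tubule and clear cell carcinoma exceeded 1 CPM (the reads of a gene as a share of the reads of its library, scaled by TMM) in both siNT groups. With siMESH1-CDS 9 of the 11 did, KRT19 and NDUFA4L2 being at 0.686 and 0.624 CPM. There 2 of the 11 were called higher and 8 lower (median log2 fold change -2.95), beside 36.9% and 37.2% of all genes. The 11 markers summed to 4466 to 4687 CPM with siNT of experiment 1 and to 5323 to 5370 CPM with siMESH1-CDS. In experiment 2 they summed to 9071 to 9587 CPM with siNT and to 8708 to 8956 CPM with siMESH1-7002. The 9 endothelial markers summed to at most 0.601 CPM in any library, and PECAM1, CLDN5 and EMCN were at 0 throughout. The 7 fibroblast and pericyte markers summed to 10.1 to 32.8 CPM in experiment 1, to 46.3 to 54.3 CPM with siNT of experiment 2 and to 98.0 to 103 CPM with siMESH1-7002, with 2 genes of each group over 1 CPM. Of the 6 leukocyte markers, CD68, also a lysosomal protein of other cells, was the 1 gene over 1 CPM. The list summed to 45.2 to 62.5 CPM with siNT and 1.22 to 7.48 CPM with siMESH1-CDS, and to 105 to 107 CPM with siNT and 136 to 146 CPM with siMESH1-7002. The part of these lists in the results below was not tested. In bulk RNA of 1 line, a change in every cell and a change in some of its cells cannot be told apart.

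EDN1 encodes endothelin-1 and lies at chr6:12290363-12297194 on the plus strand (GRCh38), with no overlapping gene. With siNT of experiment 1 it had 1793, 1494 and 1542 reads, or 33.7, 33.1 and 33.1 CPM. With siMESH1-CDS it had 1394, 1669 and 1523 reads, or 44.1, 43.4 and 43.8 CPM. The 3 siMESH1-CDS libraries were all above the 3 siNT libraries, and the spread within each group was under 1 CPM. Mean EDN1 was 33.3 ± 0.337 CPM with siNT and 43.8 ± 0.341 CPM with siMESH1-CDS (SD, n = 3). The log2 fold change was 0.39 with a standard error of 0.10 (edgeR quasi-likelihood test, adjusted p = 0.0107).

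In experiment 2, EDN1 had 259, 193 and 260 reads with siNT, or 8.17, 7.76 and 9.22 CPM. With siMESH1-7002 it had 373, 382 and 403 reads, or 12.9, 12.9 and 13.3 CPM. Again every siMESH1 library was above every siNT library. The means were 8.38 ± 0.757 and 13.05 ± 0.222 CPM (SD, n = 3). The log2 fold change was 0.64 with a standard error of 0.09 (edgeR adjusted p = 1.06e-05), which is a 1.55-fold rise against 1.31-fold with siMESH1-CDS.

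The EDN1 call with siMESH1-CDS depended on how the libraries were scaled. It was lost when libraries were scaled by their totals (log2 fold change 0.13, edgeR adjusted p = 0.260), where the median of all genes moved from -0.05 to -0.31. Relative to the median of all genes, EDN1 was at 0.44 under both scalings. It was also lost after a correction for GC content (0.08, edgeR adjusted p = 0.356), where EDN1 was at -0.09 relative to the median of all genes. Leaving out siNT replicate 3 or siMESH1-CDS replicate 1 took the call just past the threshold (edgeR adjusted p = 0.0576 and 0.0520) with little change in size (0.39 and 0.40). Under the same scalings and correction the rise with siMESH1-7002 kept a log2 fold change from 0.63 to 0.68.

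EDN2 encodes endothelin-2, the closest relative of endothelin-1 in its mature peptide, and lies at chr1:41478775-41484673 on the minus strand (GRCh38), with no overlapping gene. In experiment 1 it was near the limit of detection, with 24, 43 and 19 reads with siNT, or 0.451, 0.952 and 0.408 CPM. With siMESH1-CDS it had 0, 1 and 0 reads. The 86 siNT reads and the 1 siMESH1-CDS read give a ratio 62.2-fold lower, with an exact 95% counting interval from 10.9 to 2485-fold. That interval covers counting error only. In experiment 2, EDN2 had 743, 560 and 587 reads with siNT, or 23.4, 22.5 and 20.8 CPM, and 90, 72 and 88 reads with siMESH1-7002, or 3.12, 2.43 and 2.90 CPM. The lowest siNT library held 20.8 CPM and the highest siMESH1-7002 library 3.12 CPM. The summed counts were 7.91-fold lower with siMESH1-7002, with a counting interval from 6.93 to 9.06. These are the values that selected the family.

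ECE1 encodes the membrane metalloprotease that turns big endothelin into the active peptide. It lies at chr1:21217247-21345572 on the minus strand (GRCh38), and the antisense genes AL031005.1 and AL031728.1 overlap it. The kit marks strand, but whether the counting used it is not given in the sources used here, so reads of the antisense genes may not be separated. ECE1 had 4689, 3082 and 3783 reads with siNT of experiment 1, or 88.1, 68.2 and 81.3 CPM. With siMESH1-CDS it had 197, 128 and 377 reads, or 6.23, 3.33 and 10.8 CPM. The groups were far apart, and replicates 2 and 3 of siMESH1-CDS differed more than 3-fold from each other. Mean ECE1 fell from 79.2 ± 10.1 to 6.80 ± 3.79 CPM (SD, n = 3), a log2 fold change of -3.54 with a standard error of 0.45 (edgeR adjusted p = 0.00105).

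With siMESH1-7002, ECE1 moved the other way. It had 1758, 1378 and 1422 reads with siNT, or 55.4, 55.4 and 50.4 CPM, and 1980, 2170 and 2059 reads with siMESH1-7002, or 68.7, 73.3 and 68.0 CPM. The lowest siMESH1-7002 library was above the highest siNT library. The means were 53.7 ± 2.86 and 70.0 ± 2.90 CPM (SD, n = 3), and the log2 fold change was 0.38 with a standard error of 0.06 (edgeR adjusted p = 2.75e-05). When all 4 groups shared 1 estimate of the spread, this call was lost (log2 fold change 0.37, edgeR adjusted p = 0.505).

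**Figure D1:**
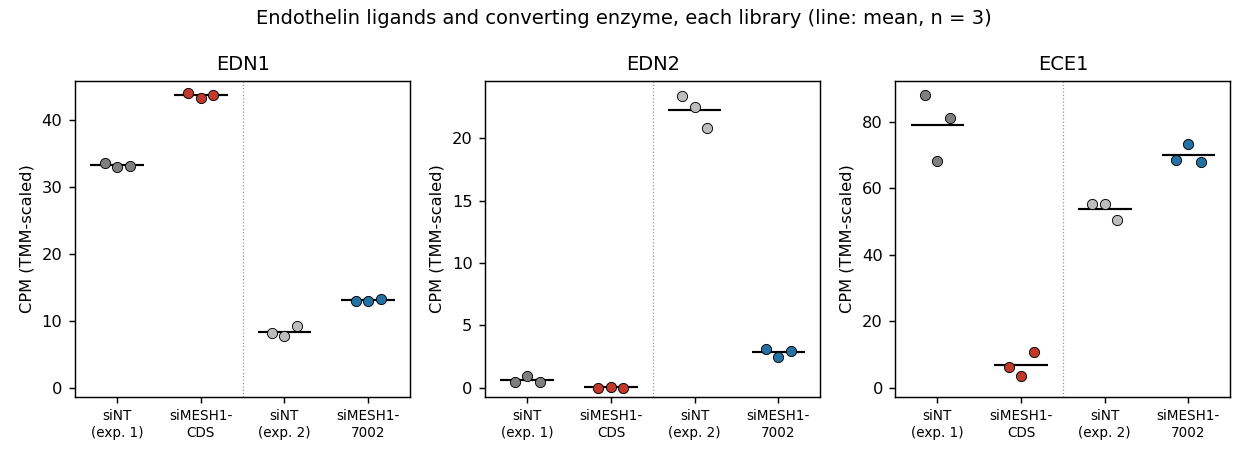
Level of EDN1, EDN2 and ECE1 in CPM (TMM-scaled within each experiment) in each library. Points are libraries, lines are means of 3, and the dotted line separates the experiments. EDN1 was higher and EDN2 lower with both siRNAs, whereas ECE1 was lower with siMESH1-CDS and higher with siMESH1-7002.

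Changes of this kind were common among all genes. With siMESH1-CDS, edgeR called 1 of the members higher (EDN1) and 1 lower (ECE1), beside 36.9% of 13395 genes called higher and 37.2% called lower. With siMESH1-7002 it called both EDN1 and ECE1 higher, beside 26.6% of 13568 genes called higher and 26.7% lower. The siMESH1 and siNT libraries did not overlap for EDN1 or ECE1 in either experiment. This held for 82.7% of all genes tested with siMESH1-CDS and for 59.5% with siMESH1-7002. EDN2 did not overlap either, but its fall selected the family, so it is not counted here. Of the called genes, 49.8% were higher with siMESH1-CDS and 49.9% with siMESH1-7002, and these shares were 60.3% and 62.3% after the GC correction. An exact two-sided permutation test of 3 against 3 libraries gave p = 0.1 for EDN1 and for ECE1 in each experiment, the smallest p that its 20 splits allow.

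The difference between the responses to the siRNAs was tested in 1 fit of all 12 libraries. The log2 fold change of ECE1 was 4.07 higher with siMESH1-7002 than with siMESH1-CDS, with a standard error of 0.45 (edgeR adjusted p = 3.39e-05). For EDN1 the difference was 0.39 with a standard error of 0.12 (edgeR adjusted p = 0.0116). The joint fit scales all libraries together and puts EDN1 with siMESH1-CDS at 0.24 in place of the 0.39 of the fit of experiment 1, so its difference is larger than that between the separate values of 0.39 and 0.64. The median of all genes was 0.24 in the same contrast, so EDN1 stood 0.15 above it and ECE1 3.83 above it. After the GC correction the difference was 1.55 for ECE1 (edgeR adjusted p = 1.75e-06) and 0.66 for EDN1 (8.48e-05), or 1.61 and 0.72 above the median of all genes. Both members were called, beside 69.7% of 14154 genes called in either direction.

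EDNRA, which in vessels carries most of the constriction by endothelin-1, and EDNRB had no read in any library. Over the 421431227 reads in genes this allows a level of at most 0.00712 CPM for each, and 0.0611 to 0.121 CPM in a single library, by counting error alone. EDN3, the ligand that acts mainly through EDNRB, also had 0 reads in all 12 libraries. A share of 22.0% of gene rows, 5214 in number, were at 0 throughout. No comparison of the receptors between groups was possible at this depth.

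The siNT groups of the experiments differed in the ligands. Mean EDN1 with siNT was 33.3 CPM in experiment 1 and 8.38 CPM in experiment 2, a 3.97-fold difference. Mean EDN2 was 0.604 and 22.3 CPM, 36.9-fold higher in experiment 2. ECE1 was 1.47-fold higher in experiment 1. CPM were scaled by TMM within each experiment, so the levels set side by side here are not on a common scale. These differences were not tested, since the experiments share no lane and cannot be told apart from it.

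The makeup of ligand reads followed. EDN2 gave 1.32%, 2.80% and 1.22% of EDN1 and EDN2 reads with siNT of experiment 1, and at most 0.0599% with siMESH1-CDS. With siNT of experiment 2 it gave 74.2%, 74.4% and 69.3%, and with siMESH1-7002 it gave 19.4%, 15.9% and 17.9%. In the siMESH1-7002 libraries EDN1 was therefore the more abundant ligand, whereas in their siNT libraries EDN2 was. This held per length too, where EDN2 took 78.7% to 82.6% of ligand CPM per kb with siNT and 23.6% to 28.3% with siMESH1-7002. The share of EDN2 uses the values that selected it and carries no test.

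**Figure D2:**
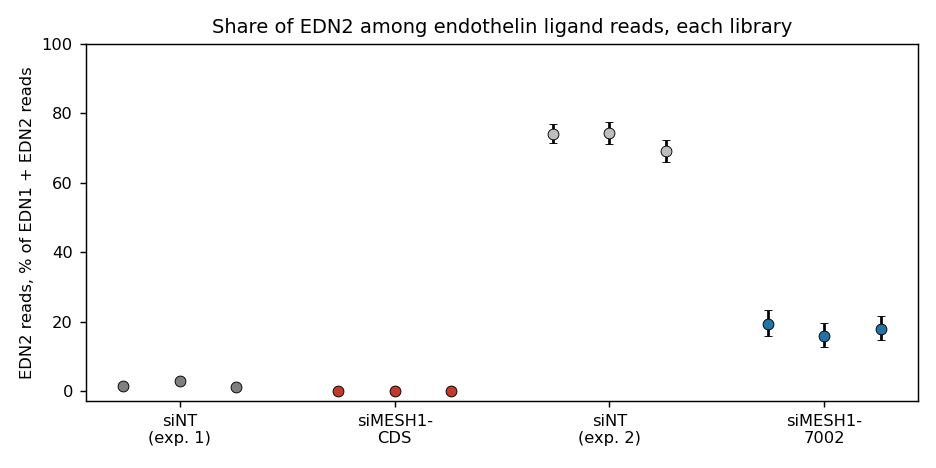
EDN2 reads as a percentage of EDN1 and EDN2 reads in each library. Points are libraries and bars are exact (Clopper-Pearson) 95% binomial intervals, which cover counting error only. The share stood at 69.3% to 74.4% with siNT of experiment 2 and at 15.9% to 19.4% with siMESH1-7002, and under 3% throughout experiment 1.

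Per kilobase of transcript, the order of the levels with siNT of experiment 1 was EDN1 (16.4 ± 0.166 CPM per kb), ECE1 (15.5 ± 1.98) and EDN2 (0.486 ± 0.244) (SD, n = 3). EDN1 and ECE1 did not differ beyond the spread of ECE1. With siMESH1-CDS, EDN1 was at 21.5 ± 0.168 CPM per kb and ECE1 at 1.33 ± 0.743. With siNT of experiment 2 the order was EDN2 (17.9 ± 1.06 CPM per kb), ECE1 (10.5 ± 0.562) and EDN1 (4.12 ± 0.372). With siMESH1-7002 it was ECE1 (13.7 ± 0.570 CPM per kb), EDN1 (6.42 ± 0.109) and EDN2 (2.27 ± 0.284). Neighbours in both of these orders were further apart than their spread. ECE1 gave 1.68 to 1.83 reads for each ligand read with siNT of experiment 2 and 4.19 to 4.78 with siMESH1-7002. It gave 2.01 to 2.58 with siNT of experiment 1 and 0.0766 to 0.248 with siMESH1-CDS. These ratios are of reads not scaled by length. Their ligand reads include those of EDN2, whose fall selected the family, so they carry no test.

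The members differ in GC content, and in experiment 1 the change of all genes ran with it. The longest coding transcripts hold 45.1% GC for EDN1, 59.5% for EDN2 and 58.5% for ECE1. With siMESH1-CDS the median log2 fold change went from 1.11 in the class of genes lowest in GC to -3.68 in the class highest in GC, of 10 classes of equal size. EDN1 was at -0.25 from the median of its class, and 37.5% of genes in that class had a lower value. ECE1 was at -0.97 and EDN2 at -3.02 from the median of their class, with 27.1% and 2.70% of the genes in their class lower. The place of EDN2 in its class uses the values that selected the family and carries no test. After the GC correction, ECE1 was still called lower with siMESH1-CDS at a log2 fold change of -1.09 (edgeR adjusted p = 0.000395).

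With siMESH1-7002 the class medians ran only from 0.14 to -0.09. EDN1 lay 0.61 above the median of its class and ECE1 0.44 above, with 94.9% and 92.4% of the genes in their class lower. EDN2 was at -2.91 from its class median, and no gene of its class had a lower value. This place too rests on the values that selected the family.

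**Figure D3:**
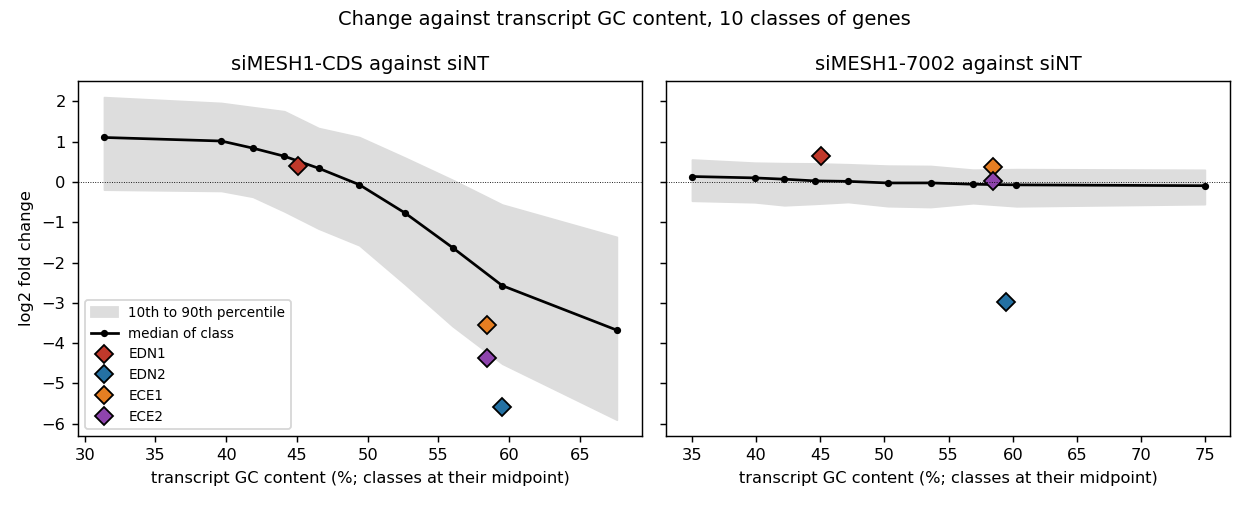
Log2 fold change against transcript GC content (%) for 10 classes of genes in each experiment. The black line joins class medians, the grey band spans the 10th to the 90th percentile of a class, and diamonds are EDN1, EDN2, ECE1 and ECE2. With siMESH1-CDS the medians fall from 1.11 to -3.68, and with siMESH1-7002 they stay between 0.14 and -0.09.

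By the labels, lanes 4 and 6 each held 1 siNT and 1 siMESH1-CDS library. Within them EDN1 changed by 0.38 and 0.41, and ECE1 by -3.02 and -3.71, on the log2 scale. EDN2 had 0.451 and 0.408 CPM with siNT and no read with siMESH1-CDS in these lanes. All libraries of experiment 2 were labelled with lane 2.

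ECE2, a converting enzyme closest to ECE1, had 530, 312 and 458 reads with siNT and 1, 3 and 41 with siMESH1-CDS. It fell with siMESH1-CDS at a log2 fold change of -4.36 with a standard error of 1.11 (edgeR adjusted p = 0.0130). Replicate 3 held 41 of the 45 ECE2 reads with siMESH1-CDS, and without it the fitted value was -7.23. ECE2 was at -2.16 after the GC correction (edgeR adjusted p = 0.0220). With siMESH1-7002 it had 263, 285 and 268 reads against 297, 228 and 248, a log2 fold change of 0.01 (edgeR adjusted p = 0.909). Its transcript holds 58.4% GC, close to that of ECE1. It overlaps the readthrough gene EEF1AKMT4-ECE2 on the same strand, so its counts are uncertain. Of the ECE genes, then, both were called lower with siMESH1-CDS, and ECE1 but not ECE2 was called higher with siMESH1-7002. The changes of these genes with siMESH1-7002 were not tested against each other.

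Enzymes that act before and after ECE1 were examined as a list of 9 genes, of which 5 could be tested. With siMESH1-CDS 1 was called higher and 3 lower, beside 36.9% and 37.2% of all genes. The median log2 fold change was -1.68 against -0.05 over all genes. With siMESH1-7002 3 were called higher and 0 lower by edgeR, beside 26.6% and 26.7% of all genes, at a median of 0.12 against 0.01. At an unadjusted p under 0.05 0 were lower as well, and DESeq2 called 0 lower. FURIN, which makes the first cut of the precursor, fell by 2.52 with siMESH1-CDS and rose by 0.12 with siMESH1-7002 (log2), but was at 0.87 with siMESH1-CDS after the GC correction. The FURIN rise with siMESH1-7002 (edgeR adjusted p = 0.0421) lost its call with scaling by library totals (adjusted p = 0.0578) and without siNT replicate 2 or any 1 siMESH1-7002 replicate (0.0571 to 0.164). PCSK7, another convertase, fell by 3.48 with siMESH1-CDS (-1.13 after the GC correction) and was at -0.04 with siMESH1-7002, which did not pass the test. MME (neprilysin), which degrades endothelins, rose with both, by 0.92 and 0.48, and the first lost its call after the GC correction (0.12, edgeR adjusted p = 0.294). CTSA (cathepsin A), which inactivates endothelin-1, fell by 1.68 with siMESH1-CDS and rose by 0.17 with siMESH1-7002, and was at 0.47 with siMESH1-CDS after the GC correction. The call of CTSA with siMESH1-CDS was lost without any 1 of the siNT replicates 1, 2 and 3 or siMESH1-CDS replicate 1 (edgeR adjusted p from 0.0570 to 0.0770).

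Of 18 genes for receptor-coupled G proteins, phospholipase C and calcium release, 17 could be tested. With siMESH1-CDS 6 were called higher and 8 lower (median -0.73), and with siMESH1-7002 5 were called higher and 6 lower (median -0.05). Of all genes, 36.9% were called higher and 37.2% lower with siMESH1-CDS, and 26.6% and 26.7% with siMESH1-7002. PLCB4, a phospholipase C isoform, rose by 1.44 with siMESH1-CDS and fell by 0.47 with siMESH1-7002. GNAI3, an inhibitory G protein subunit, likewise rose by 0.82 and fell by 0.41, and the rise did not pass the test after the GC correction (0.16, edgeR adjusted p = 0.0652). ITPR3, a calcium release channel, fell by 2.75 and 0.65, but with siMESH1-CDS was at 0.0023 after the GC correction. GNAS, the stimulatory subunit, fell by 0.76 with siMESH1-CDS and had the opposite sign after the GC correction (2.16). With siMESH1-7002 it was at -0.05, which did not pass the test. There it was called higher after that correction (0.083, edgeR adjusted p = 0.0350), which put the median of all genes at 0.075. PLCB4 with siMESH1-CDS was at 0.65 after the GC correction.

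Of 11 genes that switch off G protein-coupled receptors, 10 could be tested with siMESH1-CDS, where 2 were called higher and 7 lower (median -2.69). With siMESH1-7002 9 could be tested, of which 3 were called higher and 1 lower (median 0.10). The shares of all genes called higher and lower were 36.9% and 37.2% with siMESH1-CDS, and 26.6% and 26.7% with siMESH1-7002. GRK6, a receptor kinase, fell by 5.20 and 0.39. ADRBK1 (GRK2), the kinase known to act on EDNRA, fell by 3.77 with siMESH1-CDS and rose by 0.16 with siMESH1-7002 (edgeR adjusted p = 0.0328), a call lost without siNT replicate 3 or any 1 siMESH1-7002 replicate (0.0524 to 0.138). ARRB1, an arrestin, fell by 2.95 with siMESH1-CDS and RGS3, which speeds G protein shut-off, fell by 2.77, and neither was called with siMESH1-7002 (0.10 and -0.00054). After the GC correction the falls of ADRBK1 and RGS3 with siMESH1-CDS did not pass the test (-0.23 and -0.40), while GRK6 was at -2.07 and ARRB1 at -1.25. With siMESH1-7002 the same correction called ARRB1 (0.23, edgeR adjusted p = 3.67e-05) and RGS3 (0.13, edgeR adjusted p = 0.0177) higher, ADRBK1 was at 0.30 and GRK6 at -0.26. The median of all genes was at 0.075 there.

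All 21 transcription factors listed as acting on EDN1 could be tested. With siMESH1-CDS 6 were called higher and 5 lower (median -0.18), and with siMESH1-7002 7 higher and 6 lower (median 0.06). Of all genes, 36.9% were called higher and 37.2% lower with siMESH1-CDS, and 26.6% and 26.7% with siMESH1-7002. EPAS1 (HIF-2α) was at 0.11 with siMESH1-CDS, which did not pass the test and changed sign with scaling by library totals (-0.16) and in the fit of all 4 groups (-0.052). It was called higher with siMESH1-CDS after the GC correction (1.10, edgeR adjusted p = 0.00730). With siMESH1-7002 EPAS1 rose by 0.55. JUN, an AP-1 subunit, fell by 0.57 with siMESH1-CDS, where it was at 1.64 after the GC correction, and was at -0.08 with siMESH1-7002 (edgeR adjusted p = 0.160). SMAD3, which carries TGF-β signals, fell by 0.77 with siMESH1-CDS (-0.32 after the GC correction) and rose by 0.10 with siMESH1-7002 (edgeR adjusted p = 0.0467). That rise lost its call without any 1 library except siNT replicate 3 (edgeR adjusted p from 0.0543 to 0.149). FOSL2, another AP-1 subunit, was at -1.01 and 0.06, neither past the test with edgeR. With siMESH1-CDS FOSL2 was called lower with DESeq2 (-1.07, adjusted p = 0.0116), with scaling by library totals (-1.25), in the fit of all 4 groups (-1.17), with the replicate block (-1.15) and without siMESH1-CDS replicate 2 (-0.68) or 3 (-1.50), but was at -0.0052 after the GC correction. With siMESH1-7002 it was called higher after that correction (0.17, edgeR adjusted p = 2.87e-05), where the median of all genes was at 0.075.

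The promoters from 250 bases before to 50 bases after the RefSeq start site (GRCh38.p14) were searched on both strands for 3 words, an AP-1 word (TGANTCA), the core of hypoxia response elements (ACGTG) and a GATA word (TGATAA). The EDN1 promoter held 1 hypoxia core, 123 bases before the start, shown with the core in capitals on the strand of the gene.
EDN1, chr6:12290228-12290252, plus strand: tctccggctgCACGTtgcctgttgg
The EDNRB promoter held 2 such cores, and none of the 5 promoters held the AP-1 or GATA word. Only exact copies of these words were counted, so a variant AP-1 or GATA site would have been missed. Of 35116 promoters, 21.4% held the hypoxia core, 7.71% the AP-1 word and 7.53% the GATA word.

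Among 24 genes of other vasoactive peptide systems, 8 could be tested with siMESH1-CDS, with 4 called higher and 4 lower (median 0.21), and 9 with siMESH1-7002, with 3 called higher and 4 lower (median -0.19). The shares of all genes called higher and lower were 36.9% and 37.2% with siMESH1-CDS, and 26.6% and 26.7% with siMESH1-7002. AGT, the precursor of angiotensin, fell by 3.74 and 1.02, and with siMESH1-CDS was at -2.14 after the GC correction. ADM, the vasodilator adrenomedullin, fell by 0.78 and 0.19, and ADM2 fell by 2.17 and 0.42, but with siMESH1-CDS both had the opposite sign after the GC correction (2.07 and 1.30). The ADM fall with siMESH1-7002 lost its call after that correction (-0.062, edgeR adjusted p = 0.139) and that of ADM2 was at -0.28.

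Taking the 6 lists as a whole, 62 of 85 genes could be tested with each siRNA. With siMESH1-CDS 30.6% of them were called higher and 45.2% lower, beside the 36.9% and 37.2% of all genes. With siMESH1-7002 33.9% were called higher and 27.4% lower, beside 26.6% and 26.7%. After the GC correction 15 of them were called lower with siMESH1-CDS, against 28 without it, and 32 were called higher with siMESH1-7002, against 21. Over all genes that correction called 3494 of 12949 lower with siMESH1-CDS, against 4981 of 13395. With siMESH1-7002 it called 5226 of 13128 higher, against 3613 of 13568. In the fit of all 4 groups 7 were called higher and 7 lower with siMESH1-7002, where ADM, ADM2, CTSA, FURIN, GRK6, ADRBK1, ITPR3 and SMAD3 lost their calls. Over all 14154 genes of that fit, 1138 were called higher and 1444 lower, against 3613 and 3622 of 13568.

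**Figure D4:**
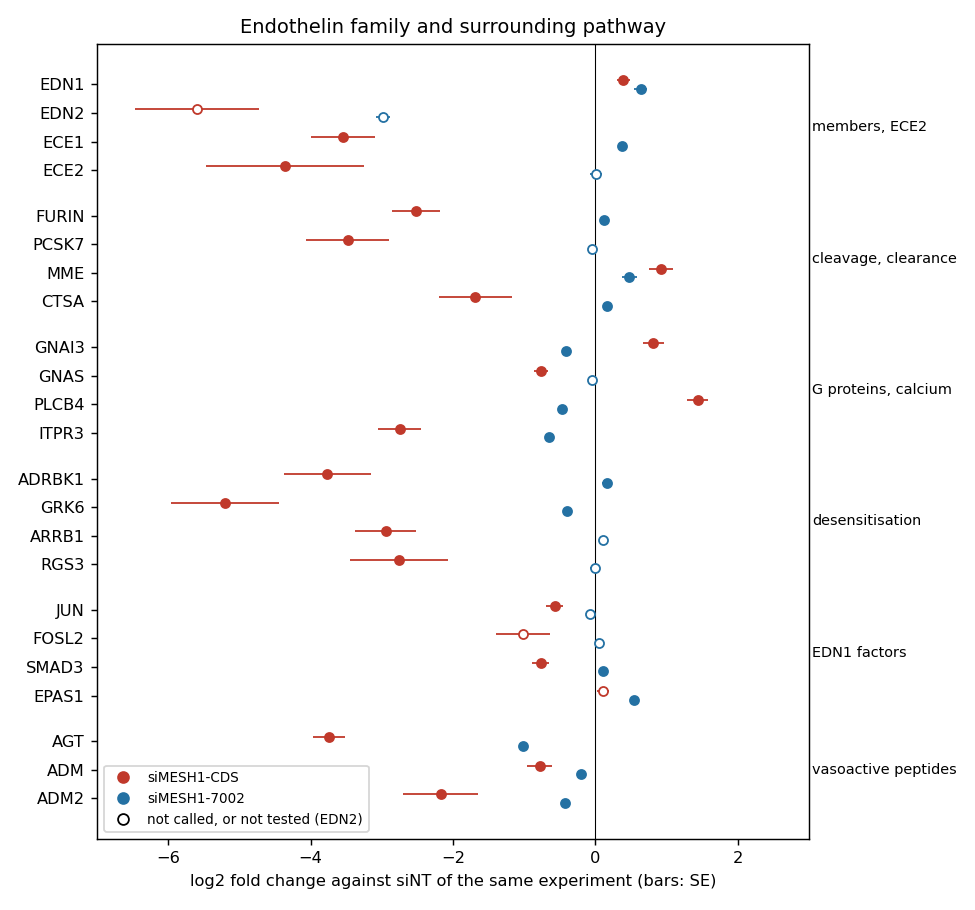
Log2 fold change against the siNT of the same experiment for the members, ECE2 and the most abundant genes of each list (4, or 3 for the vasoactive peptides), with standard errors as bars. Red is siMESH1-CDS and blue siMESH1-7002, and open points were not called by edgeR or, for EDN2, not tested. ECE1, FURIN, CTSA, ADRBK1 and SMAD3 were lower with siMESH1-CDS and higher with siMESH1-7002, and PLCB4 and GNAI3 the reverse. EDN1 and MME were higher with both. After the GC correction FURIN and CTSA were above 0 with siMESH1-CDS, and EDN1, MME, ADRBK1 and GNAI3 were not called there. The rises of FURIN, ADRBK1 and SMAD3 with siMESH1-7002 lost their calls when some single libraries were left out, as did the CTSA fall with siMESH1-CDS.

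The genes whose levels ran most like those of each member were sought over the 12 libraries, each set against the siNT mean of its experiment, among 12474 genes. For EDN1 they were TRIM55 (r = 0.98), a muscle-type ubiquitin ligase, ENTPD4 (0.98), a nucleotidase of the Golgi, and NOTCH2 (0.98), a cell surface receptor. TRIM55 changed by 0.48 and 1.00, ENTPD4 by 0.37 and 0.47, and NOTCH2 by 0.37 and 0.64 in log2 units, given first for siMESH1-CDS. For EDN2 they were NASP (r = 0.99), a histone chaperone, MCM6 (0.99), a subunit of the replicative helicase, and XRCC2 (0.99), a recombination protein. MCM6 changed by -1.36 and -1.42, and XRCC2 by -2.08 and -2.01. EDN2 had 0, 1 and 0 reads with siMESH1-CDS, so its log2 level there is set by the prior count of 2 used for this measure, and its likeness to these genes rests on that floor and on the values that selected the family.

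For ECE1 they were PHLDA3, an inhibitor of AKT, EFNA4, an ephrin, and TDP1, a DNA end-processing enzyme, each at r = 1.00. PHLDA3 changed by -4.70 and 0.58. Among the members themselves, EDN1 and EDN2 had r = -0.74, EDN1 and ECE1 r = 0.08, and EDN2 and ECE1 r = 0.54. These Pearson correlations are over 12 libraries that share group shifts, so they describe which genes shifted alike between the groups.

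**Figure D5:**
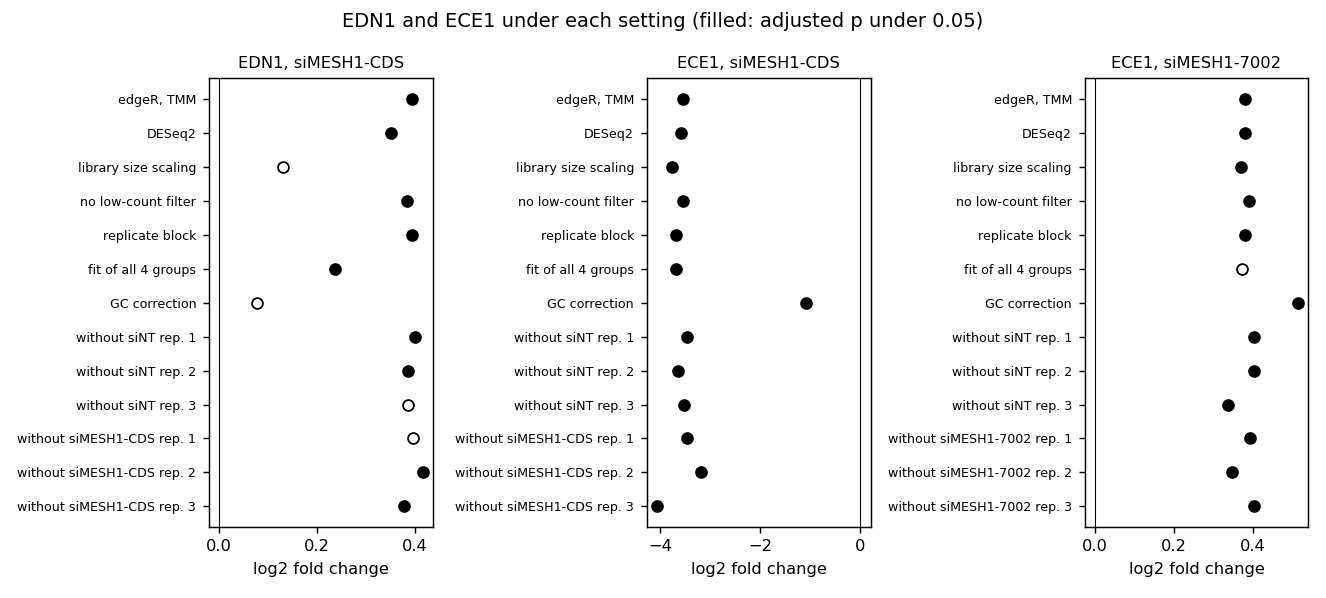
Log2 fold change of EDN1 with siMESH1-CDS and of ECE1 with each siRNA under each processing setting, filled where the adjusted p was under 0.05. EDN1 ran from 0.08 to 0.42 and was not called under 4 settings, while ECE1 with siMESH1-CDS ran from -4.07 to -1.09 and was called under each setting tested.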

How the data were processed

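Poly(A) RNA of 12 RCC4 libraries was made with a stranded Illumina kit and read as single-end 50 bp reads, per the study's methods. The authors deposited raw counts per gene, made per the submitters' notes with FastQC, HISAT2 and HTSeq on hg19, with versions and annotation not given in the sources used here. Rows that name no gene held 38.9% to 49.3% of each file's total and were left out. The authors' 2 tables of DESeq2 fold changes and p-values were not used. Counts were fitted with edgeR 4.0.16 (R 4.3.3; filterByExpr, TMM, quasi-likelihood F test, Benjamini-Hochberg, threshold 0.05), separately for each experiment, whereas the difference used all 12 libraries. DESeq2 1.42.0, library size scaling, no filter beyond 1 read, a replicate block, leaving out each library, a fit of all 4 groups, a GC correction (lowess span 0.3) and values within lanes were the alternatives. Symbols were matched to GENCODE (21257 by name, 1102 by an older symbol, 1351 not matched) for lengths, GC and positions on GRCh38, which is not the build of the counts. GC content was known for 96.7% and 96.8% of genes tested.

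The members and gene lists were chosen with earlier results of these data known. Text names the members, HDDC3, EDN3, ECE2, the 4 genes of highest mean CPM of each list, whatever their change (1 of them is not reported here), and the 3 genes most like each member among genes of at least 1 CPM. On simulated data in which 200 genes changed 2-fold, the test recovered 61 for siMESH1-CDS (1 false call, 13395 genes) and 200 for siMESH1-7002 (7 false calls, 13568 genes). In the data themselves 9926 and 7235 genes were called, far more than were changed in the simulation. The false calls therefore describe the simulated setting only. The replicates are labelled biological, and p-values measure the spread between these libraries. Between replicates edgeR estimated a common biological variation (square root of the dispersion) of 0.299 for experiment 1 against 0.0490 for experiment 2. The 12 libraries differed within each group by more than sampling noise (chi-square per degree of freedom of 2.24 or more), so none was counted as a repeat. Between siMESH1-CDS replicates this value was 65.2 to 275, against at most 15.2 in any other group.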

Additional observations from a re-analysis of the deposited data

Results flagged for a closer look

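The responses of 2 members to the siRNAs differed by the test of the difference itself. In the same contrast 69.7% of 14154 genes were called in either direction. The log2 fold change of ECE1 was 4.07 higher with siMESH1-7002 than with siMESH1-CDS, and its direction was opposite in all 3 siMESH1 libraries of each experiment. After the GC correction the difference was 1.55. EDN1 changed by 0.39 more with siMESH1-7002, or by 0.15 relative to the median of all genes in that contrast. After the GC correction these values were 0.66 and 0.72. siRNA and experiment cannot be told apart in either.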

How the results depend on the processing

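EDN1 with siMESH1-CDS was at a log2 fold change of 0.13 with library size scaling (adjusted p = 0.260) and 0.077 after the GC correction (adjusted p = 0.356), against 0.39. It ran from 0.38 to 0.42 with each library left out, where 2 of 6 fits missed the threshold. EDN1 was at 0.38 within lane 4 and 0.41 within lane 6, each from 1 library per group. ECE1 with siMESH1-7002 was at 0.37 and not called (adjusted p = 0.505) in the fit of all 4 groups. That fit called 2582 genes with siMESH1-7002 against 7235, where the wider spread of experiment 1 is shared by construction. It called 7 list genes higher and 7 lower, against 21 and 17. The edgeR value of EDN2 with siMESH1-CDS, which depends on the prior count, was -5.59, and was -3.22 after the GC correction and from -7.67 to -5.11 with each library left out. The lowest was without siMESH1-CDS replicate 2, which held the only EDN2 read. The GC correction called 15 list genes lower with siMESH1-CDS against 28, and 32 higher with siMESH1-7002 against 21. Over all genes these counts were 3494 against 4981 and 5226 against 3613. The other settings left the direction and call of EDN1 with siMESH1-7002, of ECE1 with siMESH1-CDS and of both differences as they were, though the GC correction moved ECE1 with siMESH1-CDS from -3.54 to -1.09 and its difference from 4.07 to 1.55, and that of EDN1 from 0.39 to 0.66.

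Among 31 other named genes, 22 of 744 values had the opposite sign, 12 of them under the GC correction. With siMESH1-CDS these were ADM (2.07), ADM2 (1.30), CTSA (0.47), FURIN (0.87), GNAS (2.16), ITPR3 (0.0023), JUN (1.64) and EFNA4 (0.070), and with siMESH1-7002 PCSK7 (0.089), RGS3 (0.13), GNAS (0.083) and JUN (0.055). That correction put the median of all genes at 0.17 with siMESH1-CDS and 0.075 with siMESH1-7002. EPAS1 with siMESH1-CDS was at -0.16 with library size scaling and -0.052 in the fit of all 4 groups. With siMESH1-7002, RGS3 was at 0.0011 with DESeq2 and 0.0085 with no low-count filter, and with each library left out RGS3 ran from -0.086 to 0.094 and ECE2 from -0.020 to 0.042. Of the rest, 41 lost and 13 gained a call. The cause was not tested.

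The replicate block left EDN1 at 0.39 with siMESH1-CDS (adjusted p = 0.0481) and ECE1 at -3.69, EDN1 at 0.64 and ECE1 at 0.38 with siMESH1-7002, and turned the sign of RGS3 with siMESH1-7002 (0.0062). It moved the genes called from 9926 to 9273 with siMESH1-CDS and from 7235 to 6972 with siMESH1-7002. The numbers were not used as pairs in the main fits. Same-numbered libraries had correlations of their deviations of -0.06, 0.35 and 0.18 in experiment 1 and -0.11, 0.03 and -0.10 in experiment 2. Of the siMESH1 libraries, 1 of 3 with siMESH1-CDS and 0 of 3 with siMESH1-7002 ran best with the siNT library of their number. In the other direction 2 of 3 siNT libraries of experiment 1 and 0 of 3 of experiment 2 did so. With 3 libraries per group these values cannot settle whether the numbers pair the libraries of experiment 1.

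Depth limits EDN2 in experiment 1, where 86 siNT reads and 1 siMESH1-CDS read carry the comparison, and the receptors, for which 0 reads allow at most 0.00712 CPM.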
